A study of Mus musculus with 6 samples.

Results

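The genes described here are the molecular chaperones and co-chaperones whose mouse symbols begin with Hspa, Hspb, Hspd, Hspe, Hsph, Hsp90, Dnaja, Dnajb, Dnajc, Cct2 to Cct8, Bag with a number, or Fkbp. Membership was decided by symbol alone, although the pattern of symbols was set with earlier results of these data known. There were 106 such genes among the 50600 gene identifiers in the tables. Another 12 symbols that fitted the pattern end in -ps and a number, which marks pseudogenes, and were left out. Of the 106, 2 are pseudogenes without a number (Dnaja1-ps and Dnajc19-ps). By textbook assignment 59 act in the cytosol and nucleus, 18 in the endoplasmic reticulum (ER) and 9 in the mitochondrion, and 20 act elsewhere or could not be assigned.

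The libraries come from primary cortical thymic epithelial cells (cTECs), the stromal cells of the thymic cortex on which developing T cells are positively selected. The knockout (KO) group carried the strain label B6.B6CB-Psmb11tm1Smta with the genotype Psmb11-/-, and the wild-type (WT) group was Psmb11+/+. Psmb11 encodes β5t, a proteasome subunit of cTECs, and the deletion is a germline one that every cell of the mouse carries. Mice of both groups were 8 to 10 weeks old and no treatment is named. Each group had 3 libraries of strand-specific polyadenylated RNA, A, B and C, and the labels do not say whether these came from separate mice, so a p-value here covers the spread among these libraries and nothing wider. The comparison asks how chaperone RNA differs between cTECs with and without Psmb11.

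Chaperones hold or fold unstable proteins. Hsp70 proteins bind short hydrophobic stretches of a client and are driven by J-domain proteins (Dnaja, Dnajb and Dnajc), which bring the client and start ATP hydrolysis, while Bag proteins release the nucleotide. Hsp90 matures signalling proteins with help from Fkbp prolyl isomerases, the Cct ring folds actin and tubulin, small Hsp proteins hold aggregating clients, and Hspd1 with Hspe1 forms the folding chamber of the mitochondrion. When unfolded protein builds up in the cytosol, for instance when the proteasome is blocked, heat shock factors bind repeated GAA blocks and switch on Hspa1a, Hspa1b, Hsph1, Dnajb1, Hspb1 and Bag3. In the ER the unfolded protein response switches on Hspa5, Hsp90b1 and Dnajb9.

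The promoters of 3 of the 4 genes that were higher in KO, Dnajb1, Dnaja1 and Hspb1, are printed here beside that of Hspa1a, the classical heat shock gene, which was not called. Each is the 250 bases before the start annotated in RefSeq (build GRCm38.p6), read 5′ to 3′ on the gene's strand. Gene positions given below are from GENCODE M21, whose starts can differ. The Dnaja1 window lies within the GENCODE span of that gene. Capitals mark each match to a pair of heat shock blocks, GAANNTTC or TTCNNGAA.

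Dnajb1 promoter, chr8:83607925-83608174, plus strand: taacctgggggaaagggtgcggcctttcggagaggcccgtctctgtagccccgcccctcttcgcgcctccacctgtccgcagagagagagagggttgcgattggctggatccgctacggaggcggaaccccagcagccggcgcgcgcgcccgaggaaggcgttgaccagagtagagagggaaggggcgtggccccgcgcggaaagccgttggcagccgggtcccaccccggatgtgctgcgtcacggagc

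Dnaja1 promoter, chr4:40722218-40722467, plus strand: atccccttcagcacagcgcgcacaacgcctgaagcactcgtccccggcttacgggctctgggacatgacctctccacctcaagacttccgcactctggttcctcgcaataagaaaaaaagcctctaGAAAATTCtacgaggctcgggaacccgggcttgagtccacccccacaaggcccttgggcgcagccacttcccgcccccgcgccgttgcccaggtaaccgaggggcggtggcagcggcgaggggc

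Hspb1 promoter, chr5:135887669-135887918, plus strand: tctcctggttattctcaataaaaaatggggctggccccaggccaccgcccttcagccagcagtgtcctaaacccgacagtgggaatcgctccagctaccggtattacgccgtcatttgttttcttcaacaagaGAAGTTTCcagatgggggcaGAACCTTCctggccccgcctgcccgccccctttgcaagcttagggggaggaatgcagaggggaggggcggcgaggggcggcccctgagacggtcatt

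Hspa1a promoter, chr17:34972157-34972406, minus strand: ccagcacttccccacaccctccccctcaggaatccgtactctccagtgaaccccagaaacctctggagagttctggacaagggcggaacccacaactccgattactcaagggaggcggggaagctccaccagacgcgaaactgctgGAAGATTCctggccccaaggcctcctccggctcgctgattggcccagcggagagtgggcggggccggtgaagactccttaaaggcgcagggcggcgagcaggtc

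The Hspb1 window held 2 matches, the Dnaja1 and Hspa1a windows 1 each, and the Dnajb1 window 0. A match is a description of the letters in the window, not a binding site.

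The libraries held 34265035 to 36713388 gene counts in KO and 34660349 to 39224292 in WT. Levels below are counts scaled to a common library size (CPM) after TMM, a normalization that assumes most genes keep their level. Psmb11 was at 1.33 ± 0.429 CPM in KO libraries and 252 ± 9.88 CPM in WT libraries (SD, 3 each), which was 189-fold lower, as labelled. The cTEC markers were all detected, and of 12 such genes 11 were lower and 1 was higher in KO. All 7 medullary epithelial markers were higher in KO, with a summed level of 5301 to 5689 CPM against 3948 to 4525 CPM, as were 5 of 7 fibroblast markers (1007 to 1114 CPM against 715 to 820.3 CPM) and 5 of 6 dendritic cell and macrophage markers (58.4 to 68.4 CPM against 30.9 to 33.8 CPM). No thymocyte marker was called of 11 tested, and their sum was 40.2 to 78.2 CPM in KO and 45.1 to 53.0 CPM in WT. In bulk RNA, a different number of cells of a type and a different amount of RNA per cell cannot be told apart, and the part of these marker differences in the chaperone results was not tested.

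Of the tested chaperone genes 18.1% were called, against 23.0% of all genes tested. Most of the called ones were lower in KO. Lower calls made up 13.8% of the tested chaperones against 10.7% of all genes, and higher calls 4.26% against 12.3%. The genes that rose were Dnajb1, Dnaja1 and Hspb1, which act in the cytosol and nucleus, and the ER co-chaperone Dnajb9. The 13 that fell lie across the families: 3 Cct subunits, 4 Fkbp isomerases, 3 J-domain genes, 2 small heat shock genes and the mitochondrial Hsp70 Hspa9. Of the 106 genes 94 had enough counts to be tested. A gene was called at an adjusted p below 0.05 (edgeR quasi-likelihood, Benjamini-Hochberg over 16938 genes), and 4 of the 94 were called higher and 13 lower.

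Over all genes tested 23.0% were called, 12.3% higher and 10.7% lower. Of the tested chaperones 18.1% were called, 4.26% higher and 13.8% lower. Strongly expressed genes are called more often, and among those averaging 5 CPM or more the shares were 19.0% of 84 chaperones and 27.6% of 11295 genes. The share called was below the background on both counts. The share called lower was 13.8% against 10.7% over all levels and 14.3% against 15.3% from 5 CPM upwards, so it was near the background. The sizes were small. The median log2 fold change (KO over WT) was -0.05 against -0.0008 over all genes and -0.02 over genes averaging 5 CPM or more. Of the 94 chaperones 83 differed by less than 1.25-fold, as did 12973 of the 16938 genes and 10125 of the 11295. The split between higher and lower moved with the settings: it was 7 and 10 when the test was limited to genes averaging 5 CPM or more, 4 and 6 with limma on log2(TPM + 1), and 8 and 18 without a filter on low counts.

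**Figure D1:**
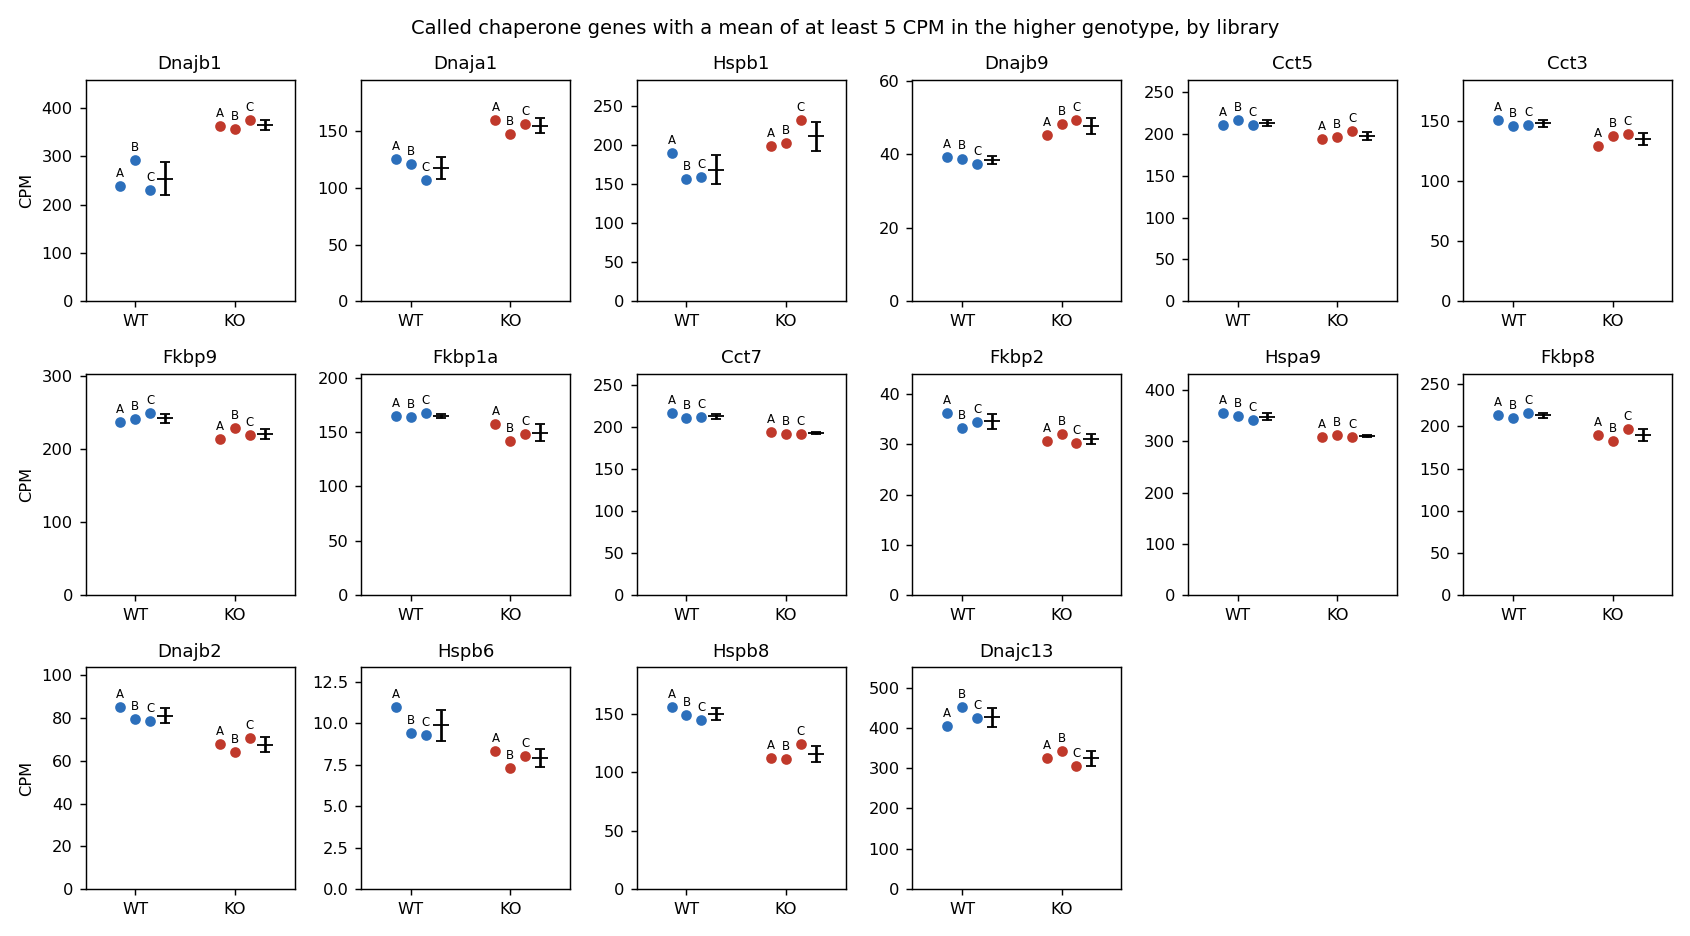
CPM in each library (points, KO and WT) for the 16 chaperone genes called at an adjusted p below 0.05 that averaged 5 CPM or more in the higher group, with bars for the mean ± SD of 3 libraries. Dnajb1, Dnaja1, Hspb1 and Dnajb9 lie higher in all 3 KO libraries than in any WT library, and the other 12 lie lower.

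The 12 genes without a test were Cct8l1, Dnaja1-ps, Dnajb13, Dnajb7, Dnajb8, Dnajc19-ps, Dnajc22, Dnajc5b, Dnajc5g, Fkbp6, Hspb7 and Hspb9. By mean level over the 6 libraries, 4 of the 106 genes were at 0 CPM, another 13 were under 1 CPM, 11 lay between 1 and 10 CPM, 45 between 10 and 100 CPM and 33 over 100 CPM.

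The most abundant chaperone RNA per unit of length was Hsp90ab1, the constitutive cytosolic Hsp90, at a mean of 1748 TPM, a measure scaled for gene length, over the 6 libraries. It was followed by Hspa8, the constitutive cytosolic Hsp70, at 1272 TPM. Next came Hspa1b at 707 TPM, Hspa5 at 683 TPM, Hspb1 at 626 TPM, Hspa1a at 610.4 TPM and Hsp90b1 at 580.5 TPM. Hsp90aa1, the inducible cytosolic Hsp90, followed at 447 TPM. The neighbours from Hspa1b to Hsp90b1 lay within the spread of the libraries, since Hspa1b alone had an SD of 148 TPM among the KO libraries. Of these 8 genes Hspb1 alone was called.

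Summed over all 106 genes, the level was 12274, 12130 and 13063 CPM in KO A, B and C and 13023, 12502 and 12351 CPM in WT A, B and C. The groups overlapped, with a KO to WT ratio of 0.989. The cytosolic and nuclear sum also overlapped, at 8035 to 8830 CPM in KO and 8169 to 8708 CPM in WT. So did the ER sum, at 2424 to 2714 CPM in KO and 2464 to 2603 CPM in WT. The mitochondrial sum did not: it was 891, 882 and 899 CPM in KO against 992, 971 and 966 CPM in WT, a ratio of 0.912. The sum of the 20 genes of other or unassigned site was lower too, at 634, 651 and 619 CPM in KO against 719, 767 and 744 CPM in WT, a ratio of 0.854. Dnajc13 was its largest contributor in every library. The Fkbp sum (1117, 1119 and 1210 CPM in KO against 1301, 1232 and 1252 CPM in WT) and the chaperonin sum (1356 to 1391 CPM against 1433 to 1467 CPM) were also lower in every KO library.

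**Figure D2:**
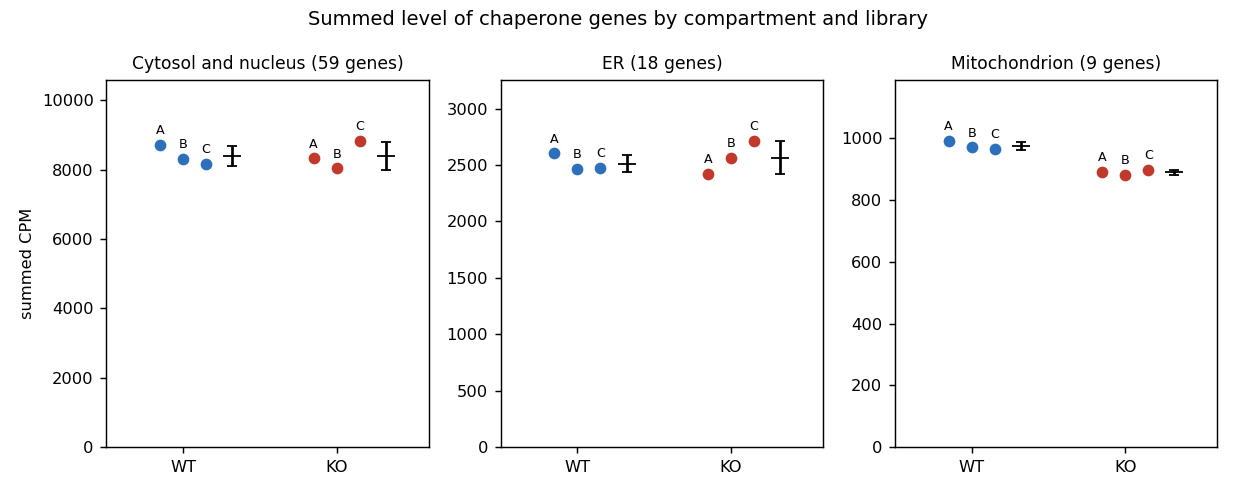
Summed CPM per library (points) for the chaperone genes of 3 compartments, in WT and KO, with bars for the mean ± SD of 3 libraries. The mitochondrial sums of 882 to 899 CPM in KO lie below those of every WT library, and the cytosolic and ER sums overlap between the groups.

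Dnajb1, the heat shock inducible J-domain partner of cytosolic Hsp70, had the largest rise of the called genes. It lies on chromosome 8 at 83608193 to 83612653, plus strand (GRCm38). Its level was 363, 357 and 376 CPM in KO A, B and C and 238, 293 and 231 CPM in WT A, B and C. Every KO library was above every WT library, and WT B stood above the other 2 WT libraries. The rise was 1.44-fold (log2 0.53, SE 0.07, edgeR adjusted p = 0.000254), and it also passed a test against a change of 1.2-fold (adjusted p = 0.00889). That stricter test, added after the data were seen, called 5.79% of all genes, and among the chaperones it called Dnajb1 higher and Dnajc12 and Dnajc13 lower. It passed the threshold in all 15 alternative analyses, with log2 fold changes of 0.46 to 0.64.

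Dnaja1, a J-domain protein of the cytosol that serves Hspa8 (chromosome 4, 40722150 to 40737149, plus strand), was at 159.9, 147 and 156 CPM in KO against 125, 121 and 107 CPM in WT. The groups did not overlap. It rose 1.31-fold (log2 0.39, SE 0.05, edgeR adjusted p = 0.000294). Hspb1, the small heat shock protein Hsp25 that holds unfolding clients (chromosome 5, 135887919 to 135889563, plus strand), was at 198, 202 and 232 CPM in KO against 189, 157 and 158 CPM in WT. KO C was the highest of its group and WT A the highest of the other, so the gap between the groups was narrow. It rose 1.25-fold (log2 0.33, SE 0.07, edgeR adjusted p = 0.00657). A robust form of the same fit, added after the data were seen, did not call Hspb1 (adjusted p = 0.069). The counts used for Dnaja1 and Hspb1 were 72.8% and 73.8% of the expected counts that also share out reads mapping to several places. Their CPM values thus leave out part of their reads. The same holds for Hspa8 (65.5%) and Hsp90aa1 (73.9%), where the median over the 94 tested genes was 108%. On the expected counts Dnaja1 and Hspb1 were still called higher, with log2 fold changes of 0.30 and 0.36.

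The other inducible genes of the cytosol did not pass the test. Hspa1a was at 372, 241 and 300.4 CPM in KO against 305, 290.3 and 266 CPM in WT (adjusted p = 0.645). Hspa1b was at 447.5, 299 and 401 CPM in KO against 358, 345 and 314 CPM in WT (adjusted p = 0.28). In both genes KO A was the highest of the 6 libraries and KO B the lowest, and the groups overlapped. Hspa1a and Hspa1b are near-identical neighbours on chromosome 17, and their counts were 31.2% and 35.0% of the expected counts. Summed, they stood at 819, 540 and 701 CPM in KO against 663, 636 and 580 CPM in WT. Hspa1b was called higher without KO B and with no filter on low counts. Without KO A the log2 fold change of Hspa1a turned from 0.08 to -0.09.

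Hsph1, an Hsp110 that releases nucleotide from Hsp70, was at 84.3, 84.0 and 125 CPM in KO against 100.1, 73.4 and 70.5 CPM in WT. Its groups overlapped, with KO C and WT A standing above the rest of their groups (log2 0.27, adjusted p = 0.23). The log2 fold change was 0.05 without KO C and 0.44 without WT A. With no filter on low counts the gene was called higher (edgeR adjusted p = 1.07e-07), in 1 of 15 alternatives. That p-value cannot be read beside those of the main fit. For Dnajb1 the unfiltered fit gave 8.62e-35 against 0.000254, and for Dnaja1 2.73e-18 against 0.000294. The reason was not tested, and the same limit holds for every call named with no filter. Bag3, which couples Hsp70 to small heat shock proteins, was at 138, 129 and 141 CPM in KO against 138, 133 and 126 CPM in WT (adjusted p = 0.654). Hsp90aa1 was at 348, 354 and 396 CPM in KO against 373, 347 and 331 CPM in WT (adjusted p = 0.45). Of 6 classical heat shock genes, Dnajb1 and Hspb1 were thus called higher, and Hspa1a, Hspa1b, Hsph1 and Bag3 did not pass. Over all genes 12.3% were called higher, and 12.4% from 5 CPM upwards. The robust fit, as given above, did not call Hspb1. The immediate early genes, which respond to handling of the tissue, were higher in the KO libraries too, with 10 of 12 called higher. Their summed level was 21410 to 23230 CPM in KO and 16400 to 19130 CPM in WT. Their part in the rise of Dnajb1, Dnaja1 and Hspb1 was not tested.

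**Figure D3:**
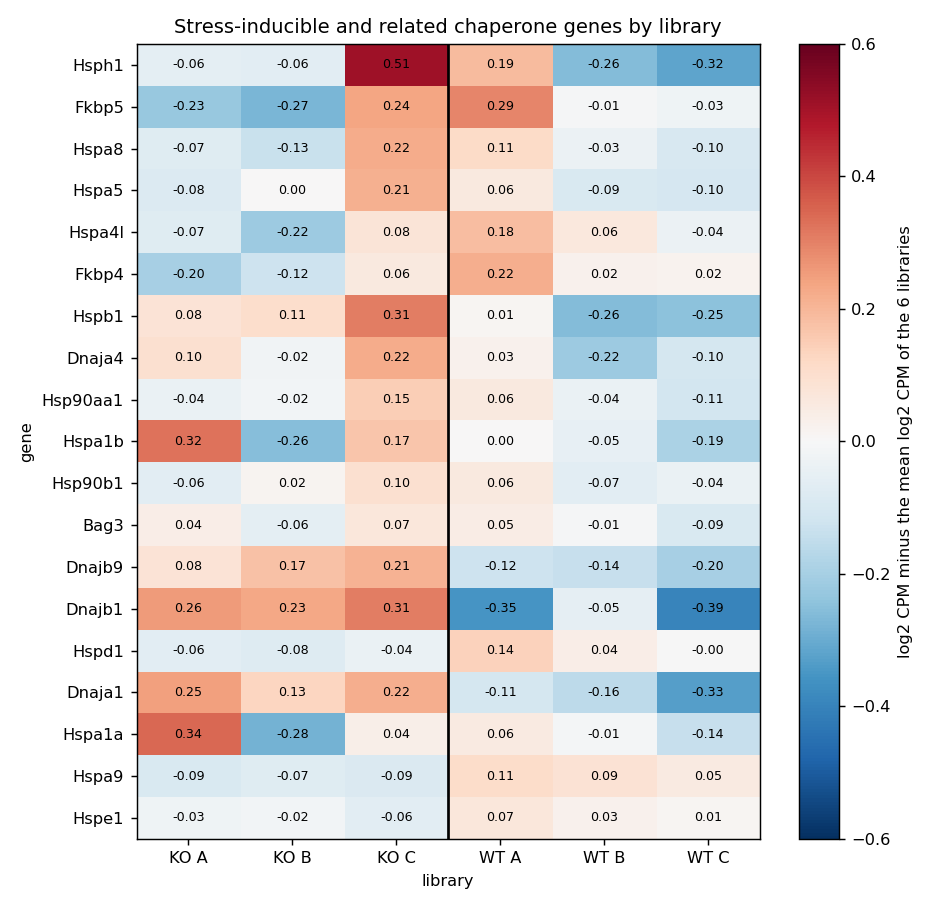
Level of stress-inducible and related chaperone genes in each library, as log2 CPM relative to the mean of the 6 libraries. Dnajb1 and Dnaja1 are above their mean in all 3 KO libraries, while Hsph1, Fkbp5, Hspa8 and Hspa5 are above their mean in KO C and WT A and near or below it in most other libraries.

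Among the constitutive cytosolic chaperones, Hsp90ab1 was at 2083, 2146 and 2301 CPM in KO against 2344, 2226 and 2265 CPM in WT. The groups overlapped (adjusted p = 0.279), and without KO C the gene was called lower (adjusted p = 0.0494). Hspa8 was at 794, 761 and 975 CPM in KO against 904, 817 and 781 CPM in WT, again overlapping (adjusted p = 0.908). Hspa4, an Hsp110 of the cytosol, was at 219, 219.9 and 216 CPM in KO against 229, 222 and 228 CPM in WT. Bag6, which guards newly made membrane proteins, lay between 274 and 289 CPM in all 6 libraries. None of the 6 Bag genes, 3 Hsp110 genes or 3 Hsp90 genes was called, where 23.0% of all genes were. Of 11 Hsp70 genes 1 was called (9.09%), the mitochondrial Hspa9.

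Some genes shared a library pattern that did not follow genotype. This was noticed after the values were seen and is given as a description. Dnaja4, Fkbp4, Fkbp5, Hspa4l, Hspa5, Hspa8, Hspb1 and Hsph1 were each at least 1.1 times as high in KO C as in the mean of KO A and B, and at least 1.1 times as high in WT A as in the mean of WT B and C. That was 9.52% of the 84 chaperones averaging 5 CPM or more, against 1.37% of the 11295 genes at that level. Hsph1 was 1.49 times as high in KO C and 1.39 times as high in WT A, and Fkbp5 1.40 and 1.24 times.

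The fallers of the cytosol and of other sites were led by Dnajc13 and Hspb8. Dnajc13 is a J-domain protein of early endosomes that acts in membrane traffic (chromosome 9, 104151282 to 104262930, minus strand). Its level was 325, 342 and 306 CPM in KO against 405, 451 and 423 CPM in WT. No library of one group reached the range of the other, and the fall was 1.31-fold (log2 -0.39, SE 0.05, edgeR adjusted p = 0.000136). Hspb8, the small heat shock partner of Bag3 in selective autophagy (chromosome 5, 116408491 to 116422864, minus strand), was at 112, 111 and 124 CPM in KO against 156, 149 and 145 CPM in WT. It fell 1.29-fold (log2 -0.37, SE 0.05, edgeR adjusted p = 0.000139) without overlap. Hspb8 thus fell while its partner Bag3 did not pass and its relative Hspb1 rose.

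Dnajb2, a J-domain protein with ubiquitin-binding motifs that passes clients to the proteasome, was at 67.9, 64.1 and 70.8 CPM in KO against 85.1, 79.4 and 78.9 CPM in WT. It fell 1.2-fold (log2 -0.26, SE 0.05, edgeR adjusted p = 0.00156) with no overlap. Hspb6, a small heat shock protein best known from muscle, was at 8.35, 7.33 and 8.02 CPM in KO against 10.97, 9.41 and 9.29 CPM in WT. Its fall of 1.25-fold (edgeR adjusted p = 0.0391) passed in 7 of 15 alternatives and was lost without any of KO B, KO C, WT A, WT B or WT C. Dnajc12, a J-domain partner of the aromatic amino acid hydroxylases, had the largest fall of all called members, from a mean of 4.83 ± 0.522 CPM in WT to 2.84 ± 0.317 CPM in KO (n = 3 each), 1.70-fold (edgeR adjusted p = 0.00274). Its level is low, so its value rests on few counts.

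A minority of the cytosolic Cct genes, Cct7, Cct3 and Cct5, fell by small amounts. Cct7 was at 194, 192 and 192 CPM in KO against 217, 211 and 212 CPM in WT (1.11-fold lower, adjusted p = 0.00648). Cct3 was at 129.8, 138 and 139 CPM in KO against 152, 146 and 147 CPM in WT (1.09-fold lower, adjusted p = 0.025). Cct5 was at 193, 196 and 203 CPM in KO against 210, 217 and 211 CPM in WT (1.08-fold lower, adjusted p = 0.0443). In all 3 genes the groups did not overlap, and the gap was a few CPM in Cct5. Of 8 Cct genes of the cytosol that were tested 3 were called lower and none higher, which is 37.5%. Of all genes averaging 5 CPM or more 27.6% were called and 15.3% were called lower. The 8 include Cct6b, which averaged under 5 CPM. The groups overlapped in 4 of the 8 Cct genes, and in the other 4 KO lay below WT. Over all genes 39.3% did not overlap, 20.0% with KO below, and from 5 CPM upwards KO lay below in 2980 of 11295 genes. The median log2 fold change of the 8 Cct genes was -0.08. Cct2, Cct4 and Cct6a had log2 fold changes of -0.02, -0.01 and 0.00. Cct7 was lost with limma on log2(TPM + 1), where its log2 fold change was -0.07. Cct3 was lost without KO A, WT A, WT B or WT C, and Cct5 without KO A, KO B or any WT library. Tcp1, the remaining subunit of the ring, is named outside the pattern of symbols. It was not called, at 178 CPM in KO against 184.5 CPM in WT (group means).

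The Fkbp isomerases that changed were all lower. Of 14 tested, 4 fell and none rose, with a median log2 fold change of -0.15. That is 28.6% called, all of them lower. Of all genes 23.0% were called and 10.7% were called lower, and from 5 CPM upwards 27.6% and 15.3%. The 14 include Fkbp1b and Fkbp11, which averaged under 5 CPM. Fkbp8, an outer mitochondrial membrane isomerase that binds Bcl2, was at 190.1, 182.5 and 196 CPM in KO against 213, 210.4 and 215 CPM in WT (1.12-fold lower, adjusted p = 0.00571). Fkbp1a, the FK506 target, was at 157, 142 and 148 CPM in KO against 164, 164 and 167 CPM in WT (1.1-fold lower, adjusted p = 0.0219). Fkbp9 of the ER was at 215, 229 and 219 CPM in KO against 237, 242 and 249 CPM in WT (1.1-fold lower, adjusted p = 0.0181). Fkbp2, also of the ER, was at 30.7, 32.1 and 30.3 CPM in KO against 36.1, 33.2 and 34.3 CPM in WT (1.11-fold lower, adjusted p = 0.0446). None of the 4 overlapped between groups. Fkbp8 passed in all 15 alternatives, Fkbp9 in 11, Fkbp1a in 8 and Fkbp2 in 4. Fkbp9 was lost without KO A or WT C, Fkbp1a without KO B, KO C or any WT library, and Fkbp2 without KO A, KO C or any WT library. Fkbp4, the Hsp90 partner of steroid receptors, was at 191, 201 and 228 CPM in KO against 254, 223 and 222 CPM in WT (adjusted p = 0.0752). Its KO C library overlapped WT. It was called lower without KO C, and with all libraries by DESeq2 and with no filter on low counts. Fkbp5, which also binds Hsp90, was at 120.5, 117 and 166 CPM in KO against 173, 140.0 and 138 CPM in WT (adjusted p = 0.355). It too was called lower without KO C and with no filter on low counts.

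In the ER, 1 of 18 genes rose and 2 fell, the Fkbp genes above, which is 16.7% called against 23.0% of all genes. The median log2 fold change of the 18 was 0.02. The gene that rose was Dnajb9 (ERdj4), a J-domain protein that returns Hspa5 to the stress sensor Ire1. Its level was 45.3, 48.3 and 49.4 CPM in KO against 39.3, 38.9 and 37.2 CPM in WT, with no overlap. It rose 1.24-fold (log2 0.31, SE 0.05, edgeR adjusted p = 0.000581). Hspa5, the ER Hsp70 known as BiP, was at 725, 769 and 890.0 CPM in KO against 799, 719 and 714 CPM in WT (adjusted p = 0.345). Hsp90b1, the ER Hsp90, was at 689, 728 and 771 CPM in KO against 749, 688 and 699 CPM in WT (adjusted p = 0.65). Both overlapped between groups, with KO C highest. Dnajc3, an ER J-domain protein that also inhibits the kinase Perk, was at 164, 181 and 170.5 CPM in KO against 169.5, 167 and 165 CPM in WT (adjusted p = 0.517).

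The classical ER stress element, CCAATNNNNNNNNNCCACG on either strand, was found in the 250 bases before the start of Hspa5, Hsp90b1 and Dnajc3. These 3 were 3.45% of the 87 chaperone genes with a promoter in the RefSeq table, against 0.13% of all 27025 genes there. The sites are printed because all 3 genes overlapped between KO and WT. Capitals mark the element on the gene's strand, with 5 flanking bases on each side in lower case.

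Hspa5, chr2:34772025-34772043, plus strand: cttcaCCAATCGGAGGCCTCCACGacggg

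Hsp90b1, chr10:86705638-86705656, minus strand: caagcCCAATCGCAAGGAGCCACGcttcg

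Dnajc3, chr14:118937827-118937845, plus strand: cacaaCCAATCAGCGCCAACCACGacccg

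Hsp90b1 held another copy on the opposite strand, nearer its start. Dnajb9, the ER gene that rose, had no match in its window.

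In the mitochondrion none of 9 genes rose and 2 fell, Hspa9 and Fkbp8, which is 22.2%. Of all genes 23.0% were called and 10.7% were called lower, and from 5 CPM upwards 27.6% and 15.3%. The median log2 fold change of the 9 was -0.12, and in 6 of the 9 every KO library was below every WT library. Over all genes 39.3% had groups that did not overlap, 20.0% with KO below and 19.2% with KO above. All 9 averaged over 5 CPM, and at that level KO lay below WT in 2980 of 11295 genes and above in 2083. Hspa9 (mortalin), the matrix Hsp70 that pulls in imported proteins (chromosome 18, 34937414 to 34954357, minus strand), was at 309, 312 and 309 CPM in KO against 354, 349 and 341 CPM in WT. It fell 1.12-fold (log2 -0.17, SE 0.03, edgeR adjusted p = 0.00301) in a small change with little spread within groups. Hspd1 (Hsp60) was at 167, 166 and 170.1 CPM in KO against 192, 179.6 and 174 CPM in WT (adjusted p = 0.053), and Hspe1 (Hsp10) at 49.4, 49.6 and 48.15 CPM in KO against 52.7, 51.2 and 50.7 CPM in WT (adjusted p = 0.234). Neither overlapped between groups and neither passed. Hspd1 was however called lower without WT C, with unstranded counts, with no filter on low counts and with the robust fit. The 5 mitochondrial J-domain genes did not pass. Dnaja3, the matrix J-domain partner of Hspa9, was at 68.7, 66.7 and 69.1 CPM in KO against 70.8, 70.9 and 74.1 CPM in WT (adjusted p = 0.168). Dnajc19, a J-domain protein of the protein import motor, was at 19.4, 19.2 and 17.1 CPM in KO against 20.2, 21.2 and 21.8 CPM in WT (adjusted p = 0.0726). Dnajc11, a J-domain protein of the inner membrane junctions, was the one mitochondrial member with a positive log2 fold change (0.04, adjusted p = 0.558).

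**Figure D4:**
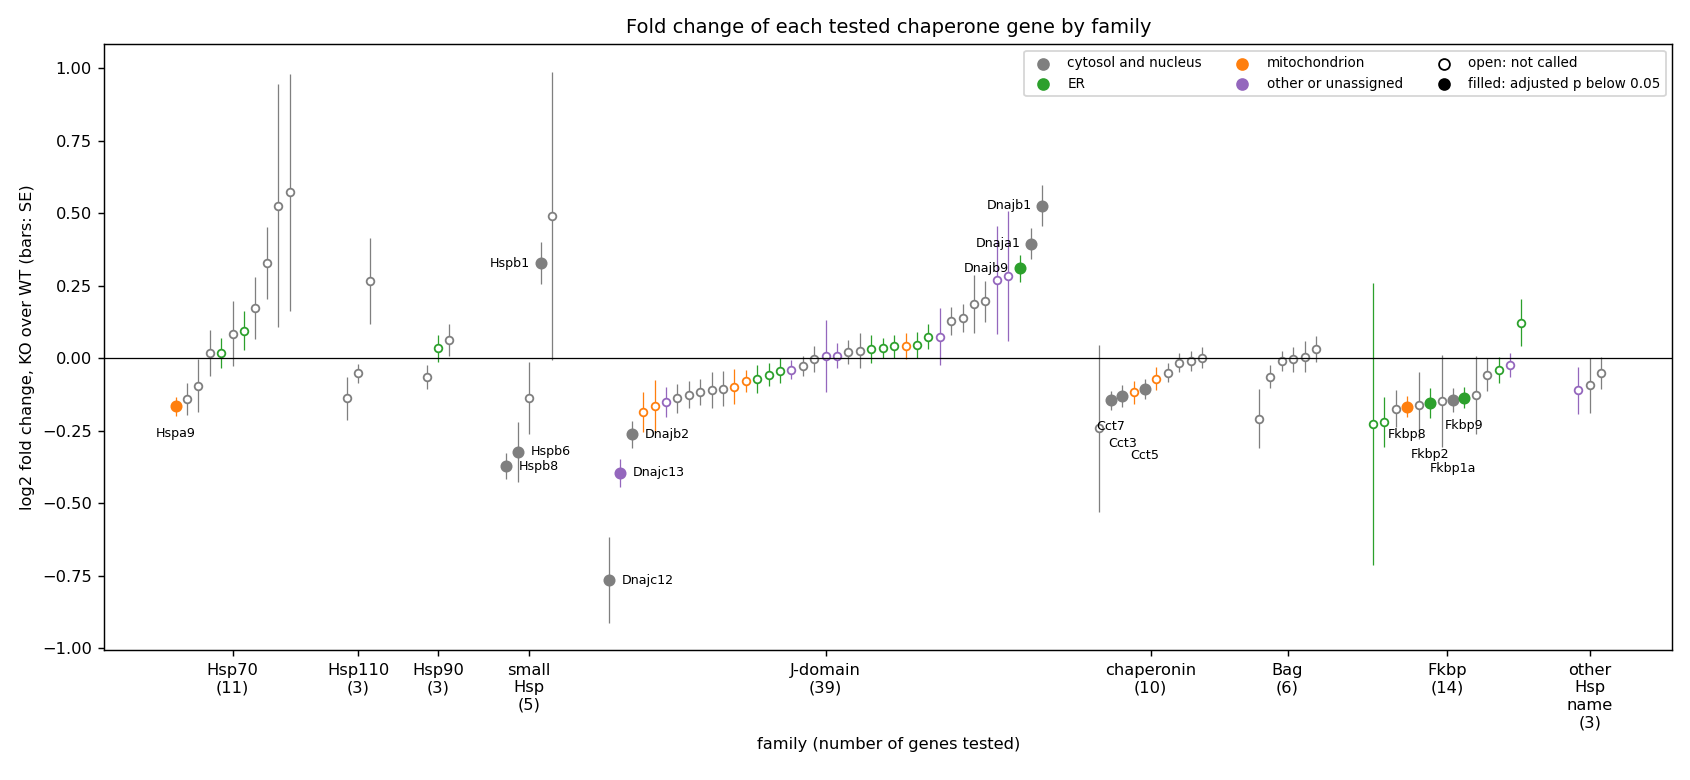
Log2 fold change (KO over WT) of each of the 94 tested chaperone genes, with its SE as a bar, grouped by family and coloured by compartment, with called genes filled and named. Dnajb1 at 0.53 is the largest rise among called genes and Dnajc12 at -0.77 the largest fall.

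A run of 3 heat shock blocks (GAANNTTCNNGAA or TTCNNGAANNTTC, either strand) was found in the windows of Hspd1, Hspe1 and Dnajb6, 3.45% of the 87 matched genes against 0.514% of all genes. Hspd1 and Hspe1 lie head to head on chromosome 1 and share 1 site, printed here in the direction of Hspe1 because neither gene rose in KO. Capitals mark the overlapping matches.

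Hspe1, chr1:55088059-55088076, plus strand: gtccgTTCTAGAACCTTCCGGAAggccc

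Pairs of blocks (GAANNTTC or TTCNNGAA), which include the runs of 3, were found in 19 chaperone genes, 21.8% against 14.5% of all genes. They were in 2 of the 4 genes that rose, Dnaja1 and Hspb1, in 2 of the 11 matched genes that fell, Cct5 and Hspb6, and in 14 of the 64 that were not called.

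Of 47 other genes of the chaperone system, chosen for role (heat shock factors, Hsp90 co-chaperones, prefoldin, mitochondrial proteases, ER folding enzymes and cyclophilins), 1 was higher and 10 were lower. Their median log2 fold change was -0.04, and 23.4% were called, close to the 23.0% of all genes. By direction 21.3% were called lower and 2.13% higher, against 10.7% and 12.3% of all genes (15.3% and 12.4% from 5 CPM upwards). The gene that rose was Grpel2, a nucleotide exchange factor of mitochondrial Hsp70, at 1.14-fold. That call was made in 4 of 15 alternative analyses and in none that left out a library. Its relative Grpel1 fell 1.15-fold. Sil1, the exchange factor of Hspa5, fell 1.23-fold (adjusted p = 0.000508), and Ppia, the main cyclophilin, fell 1.14-fold (adjusted p = 0.00275). The mitochondrial ATPase Clpx fell 1.12-fold and the mitochondrial Hsp90 Trap1 fell 1.1-fold. In the cytosol the prefoldin subunit Pfdn5 fell 1.11-fold, and 3 partners of Hsp70 and Hsp90 fell too, Sugt1 by 1.125-fold, the ubiquitin ligase Stub1 by 1.1-fold and Cdc37 by 1.075-fold. The heat shock factor Hsf4 fell 1.27-fold (9.87 against 12.52 CPM). Hsf1, the main stress-activated factor, was at 64.7 CPM in KO against 66.2 CPM in WT (group means) and was not called (adjusted p = 0.636).

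Of the 39 J-domain genes tested 3 rose and 3 fell, which is 15.4% called against 23.0% of all genes. Each direction held 7.69%, against 12.3% higher and 10.7% lower over all genes. The median log2 fold change of these J-domain genes was 0.01, with values from -0.77 to 0.53. Their summed level was 2664 to 2692 CPM in KO and 2602 to 2702 CPM in WT, so gains and losses left the family total within its spread. The genes nearest to the threshold without passing it lay on both sides, and are named here after their values were seen. Dnajc4 was at 24.3, 24.2 and 25.6 CPM in KO against 27.9, 27.3 and 27.0 CPM in WT (adjusted p = 0.057). Dnajc9, a partner of histones H3 and H4, was at 29.6, 28.9 and 29.9 CPM in KO against 33.7, 31.2 and 32.5 CPM in WT (adjusted p = 0.0637). In both the KO libraries lay below every WT library. Dnajb4, a relative of Dnajb1, was at 79.6, 74.5 and 73.0 CPM in KO against 70.4, 71.8 and 64.3 CPM in WT (adjusted p = 0.064). Dnaja4, a relative of Dnaja1, was at 42.1, 38.8 and 45.9 CPM in KO against 40.2, 33.9 and 36.6 CPM in WT (adjusted p = 0.0641). The groups of Dnajb4 did not overlap and those of Dnaja4 did. Dnajc6, auxilin, which uncoats clathrin vesicles with Hspa8, was at 45.2, 45.4 and 42.4 CPM in KO against 38.8, 40.6 and 42.1 CPM in WT (adjusted p = 0.0752). Dnajc2, which sits on the ribosome, was at 44.8, 46.3 and 41.9 CPM in KO against 49.4, 47.7 and 48.3 CPM in WT (adjusted p = 0.0697). Dnaja4 was called higher with DESeq2, no filter, a minimum mean of 5 CPM, a replicate block, or without KO B or WT A. Dnajb4 was called higher with no filter, that minimum, a replicate block or the robust fit. Dnajc6 was called higher with that minimum, on the expected counts or without KO C. Dnajc4 was called lower on the expected counts or without KO C, and Dnajc2 with no filter or without KO B. Dnajc9 was called in no setting.

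Of the 94 genes tested 11 differed by at least 1.25-fold, and 7 of those were called. The other 4 were Hspa2, Hspa12b, Hspa1l and Hspb3, all with higher KO means. Hspa2, a testis-enriched Hsp70, was at 7.30, 6.08 and 6.64 CPM in KO against 5.49, 5.82 and 4.66 CPM in WT without overlap (adjusted p = 0.0807). Hspa12b, Hspa1l and Hspb3 stayed under 1.5 CPM in every library, and their groups overlapped. Over the 94 genes the groups did not overlap in 41, with KO below in 31 and KO above in 10. Of all 16938 genes 6650 (39.3%) did not overlap, with KO below in 3396 (20.0%) and KO above in 3254 (19.2%). Among the 84 chaperones averaging 5 CPM or more KO lay below in 29 and above in 9. At that level the counts over 11295 genes were 2980 and 2083.

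On chromosome 14, which carries Psmb11, lie 3 of the chaperone genes, Dnajc3, Dnajc9 and Dnajc15, and none was called.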

How the data were processed

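RNA was measured as polyadenylated, strand-specific libraries of cTECs, 3 KO and 3 WT. Per the submitters' processing notes, the tools were bcl2fastq 2.17, the aligner STAR 2.5.1b and the quantifier RSEM 1.2.28. The build listed there is GRCh38, which is human, but identifiers are mouse Ensembl ones, so the build stays uncertain. Symbols and positions were looked up in GENCODE M21 (GRCm38), which matched 50376 of 50600 identifiers. The deposited counts are raw read counts per gene for each strand setting, and the column holding nearly all gene counts was used. Rows that name no gene (18.4% to 19.8% of reads) were left out of library sizes. The authors also deposited RSEM expected counts, rounded here, and TPM values scaled for length. TPM served to order genes by level, and both served in alternatives.

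Genes passing filterByExpr were compared by quasi-likelihood in edgeR 4.0.16 under R 4.3.3 (TMM, no covariate, Benjamini-Hochberg adjustment). SE was derived from the F statistic. The members and lists were chosen with earlier results of these data known. The naming rule took every called member averaging 5 CPM or more in its higher group and the stress-inducible members. It also took the most abundant member of each family by compartment. Values per library were given for those that were tested, with Bag6 as a range. Fkbp15, Hspb11 and Hspbp1, none of them called, fell under the rule but are not given by library. Other named genes are examples of their group. Hsf1, Tcp1, Fkbp5, the genes just outside the threshold and those past 1.25-fold without a call were named outside that rule after their values were seen. So were Dnajc9 and Dnajc15 of chromosome 14.

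In simulated data with 200 changed genes, the test found 76% of changes by 1.25-fold and 82% by 1.5-fold, rising to 96% by 2-fold and 100% by 4-fold, with 6.84% of calls false. The simulation changed far fewer genes than the 3899 called in the data. It gave every gene the spread typical of its level, so its shares do not hold for genes with a wider spread. Among the KO libraries the SD was 24.13% of the mean for Hsph1 and 21.55% for Hspa1a. Libraries of the same letter were not treated as pairs. Deviations of same-letter libraries from their group means correlated at -0.0156, 0.0818 and -0.0341 over 16938 genes. Those of the other KO and WT pairs lay between -0.0666 and 0.0837. With 3 libraries per group these values cannot decide whether a letter marks a shared origin. Alternatives were RLE factors, DESeq2 1.42.0, no filter, a minimum mean of 5 CPM, unstranded counts, RSEM expected counts, limma 3.58.1 on log2(TPM + 1) or log2(TPM + 0.1), a replicate block and leaving out each library. A test against a fold change of 1.2 and a robust fit were added after the data were seen. Plots used matplotlib 3.10.9 under Python 3.11.15.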

Additional observations from a re-analysis of the deposited data

How the results depend on the processing

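Chaperone genes called higher and lower numbered 4 and 13. The counts were 8 and 18 with no filter, 7 and 10 with a minimum mean of 5 CPM, 4 and 6 with limma at either pseudocount on TPM, and 1 and 2 against a fold change of 1.2. With a replicate block they were 6 and 11 (Cct5 at an adjusted p of 0.058 and Fkbp2 at 0.0623 were not called), and with a robust fit 4 and 14. Leaving out one library gave 4 to 6 higher and 8 to 14 lower, with 8 lower without WT A, WT B or WT C. All genes, 2079 higher and 1820 lower, came to 1169 and 758 with limma at a pseudocount of 1, 1119 and 738 at 0.1, and 775 and 206 against a fold change of 1.2. Leaving out one library gave 1477 to 1836 higher and 1152 to 1615 lower. Other chaperone-system genes, 1 higher and 10 lower, came to 2 higher with RLE factors, a minimum mean of 5 CPM, RSEM expected counts or the robust fit, 5 lower with limma at a pseudocount of 1 (7 at 0.1), and 0 of each against a fold change of 1.2. Leaving out one library gave 0 to 2 higher, never Grpel2, and 7 to 11 lower. The cause of these moves was not tested, apart from the smaller number of libraries or genes.

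The tested genes of the naming rule were refitted under each alternative. The sign turned in these, none of them called in the setting that turned it: Bag3 without WT C (-0.0049), Bag6 with a minimum mean of 5 CPM (0.0091), limma (0.0813 and 0.0817) and without KO A (0.0018), KO B or WT C (0.0037 each), Fkbp15 with limma (0.0045 and 0.0046), Hsp90aa1 with limma (-0.0218), Hsp90b1 without KO C (-0.0085), Hspa1a without KO A (-0.0858), Hspa4 with limma (0.0143 and 0.0145), and Hspa8 without KO C (-0.1015) or WT C (-0.0305), all log2. Leaving out one library moved Bag3 from -0.0049 to 0.0693, Bag6 from -0.0362 to 0.0037, Hsp90b1 from -0.0085 to 0.0734, Hspa1a from -0.0858 to 0.2276 and Hspa8 from -0.1015 to 0.0843. Dnaja1, Dnajb1, Dnajb2, Dnajb9, Dnajc13, Fkbp8, Hspa9, Hspb1 and Hspb8 were called in all 15 alternatives apart from the 2 added after the data were seen. Of those 9, the robust fit lost Hspb1 and the test against 1.2-fold lost all but Dnajb1 and Dnajc13. Changes of about 1.1-fold, as in the Cct and Fkbp genes, are smaller than any size tried in the simulated data.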
